A study of Mus musculus with 34 samples.

Results

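Bone marrow-derived macrophages from Dnmt3a knockout mice were compared with macrophages from WT mice after culture in vehicle, that is, without added lipoprotein. The comparison rests on 6 of the 34 RNA-seq libraries of the series, the 3 labelled Dnmt3aKO ctl and the 3 labelled WT ctl. These libraries were taken by their genotype and treatment labels. The comparison, its markers and the gene lists were chosen with earlier results of these data known, so counts per list only describe these libraries. The Dnmt3aKO mice carried floxed Dnmt3a alleles with the Vav-Cre transgene (Dnmt3afl/fl;Vav-Cre), and the WT mice carried Vav-Cre alone, so the recombinase was common to both groups. Vav-Cre is driven by a promoter active throughout the blood lineages, and deletion therefore takes place in blood stem cells, well before macrophages form in culture. For all groups, marrow of mice aged 10 to 14 weeks was grown for 6 days with 10 ng/ml of M-CSF, the cytokine that drives macrophage formation, replated, rested for 24 h and then kept for 24 h in vehicle or in 200 mg/dL low-density lipoprotein (LDL). Further groups of 3 libraries each are used below only to place the vehicle comparison: Dnmt3aKO with LDL, Tet2KO with vehicle (Tet2fl/fl;Vav-Cre), Jak2VF with vehicle (Jak2V617F/WT;Vav-Cre) and WT with LDL. Nothing in the labels states that libraries of one group were made from different mice. The p-values rest on the spread between libraries within all groups fitted, which may be technical.

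Dnmt3a encodes a de novo DNA methyltransferase, an enzyme that adds methyl groups to cytosines in CG dinucleotides that carried none. Inactivating mutations of the human gene are among the most frequent in clonal haematopoiesis, in which the progeny of a mutated blood stem cell make up a growing share of blood cells, macrophages included. In mouse blood stem cells, loss of Dnmt3a is known to favour self-renewal over differentiation. Macrophages themselves take up lipoproteins, clear dying cells and release cytokines, and these functions set the gene groups described here. RNA was measured, but neither DNA methylation nor protein was.

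The Dnmt3aKO vehicle libraries held 42472328, 39757748 and 39989463 counts, against 37504702, 34998109 and 37104573 in the WT vehicle libraries, and 31347, 30995 and 30882 genes had at least 1 count in Dnmt3aKO, against 29805, 29754 and 29933 in WT. Log-scale values of libraries of the same group correlated at 0.982 to 0.997 across genes, and those of different groups at 0.973 to 0.981. Levels are given as CPM, counts scaled to a common library size, which are relative to the library's scaled total and do not correct for gene length. Fold changes are log2 differences of Dnmt3aKO over WT, with 3 libraries each. Their standard errors were derived from the statistic of edgeR's quasi-likelihood test, in 1 fit of all 24 libraries. The spread they carry is thus estimated across all groups of that fit. Adjusted p-values are from the same test over all 19444 genes tested. A gene is said to have risen or fallen where its adjusted p was under 0.05. In bulk RNA, fewer cells of a type and less RNA per cell cannot be told apart.

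Dnmt3a itself (chromosome 12, 3806007 to 3914443, GRCm38) stood at 36.6, 32.6 and 32.7 CPM in Dnmt3aKO, against 54.6, 65.9 and 71.2 CPM in WT. All 3 Dnmt3aKO libraries lay below all 3 WT libraries, with a log2 fold change of -0.91 ± 0.15 (adjusted p = 0.000199). The count covers the whole gene, including exons that a floxed allele keeps after recombination, so the remaining signal does not measure intact transcript. Of the 44 tested genes within 5 Mb of Dnmt3a, 2 passed the test (4.55%, against 11.1% of all genes tested), which were Sdc1, a heparan sulphate proteoglycan (0.60 ± 0.10, adjusted p = 0.000167), and Mfsd2b, a sphingosine 1-phosphate transporter of red cells and platelets (1.12 ± 0.22, adjusted p = 0.00142).

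Gdf3, Apoc1 and Eps8l1, given as markers with earlier results of these data known, were among the largest changes in either direction. Gdf3, a TGF-beta family ligand that signals through nodal-type receptors, stood at 23.6, 21.2 and 24.9 CPM in Dnmt3aKO, against 1.04, 1.02 and 1.39 CPM in WT (4.33 ± 0.16, adjusted p = 4.6e-13; chromosome 6, 122605403 to 122610087). Apoc1, a small apolipoprotein of circulating lipoproteins, stood at 4.99, 6.15 and 5.57 CPM in Dnmt3aKO, against 0.382, 0.141 and 0.236 CPM in WT (4.43 ± 0.38, adjusted p = 7.02e-08; chromosome 7, 19689481 to 19692660). Eps8l1, a relative of the actin regulator Eps8, moved the other way, with 0.508, 0.561 and 0.68 CPM in Dnmt3aKO and 4.59, 5.09 and 5.09 CPM in WT (-3.07 ± 0.15, adjusted p = 9.59e-12; chromosome 7, 4460674 to 4480487). For each of the 3 genes the Dnmt3aKO and WT libraries were far apart with no overlap. Gdf3 was also high in Tet2KO, at 12.4, 12.7 and 13.3 CPM, and low in Jak2VF, at 0.411, 0.375 and 0.271 CPM, and the direct test of Dnmt3aKO against Tet2KO gave 0.86 ± 0.13 (adjusted p = 0.000127). Apoc1 stayed at 0.362, 0.635 and 0.18 CPM in Tet2KO and 0.365, 0.348 and 0.217 CPM in Jak2VF, and Dnmt3aKO exceeded both, by 3.90 ± 0.37 (adjusted p = 1.78e-07) and 4.14 ± 0.37 (adjusted p = 7.97e-08). Eps8l1 stood at 3.69, 4.12 and 3.74 CPM in Tet2KO and 6.27, 5.25 and 5.08 CPM in Jak2VF, well above Dnmt3aKO (-2.71 ± 0.15, adjusted p = 6.97e-11, and -3.24 ± 0.15, adjusted p = 3.6e-12).

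**Figure D1:**
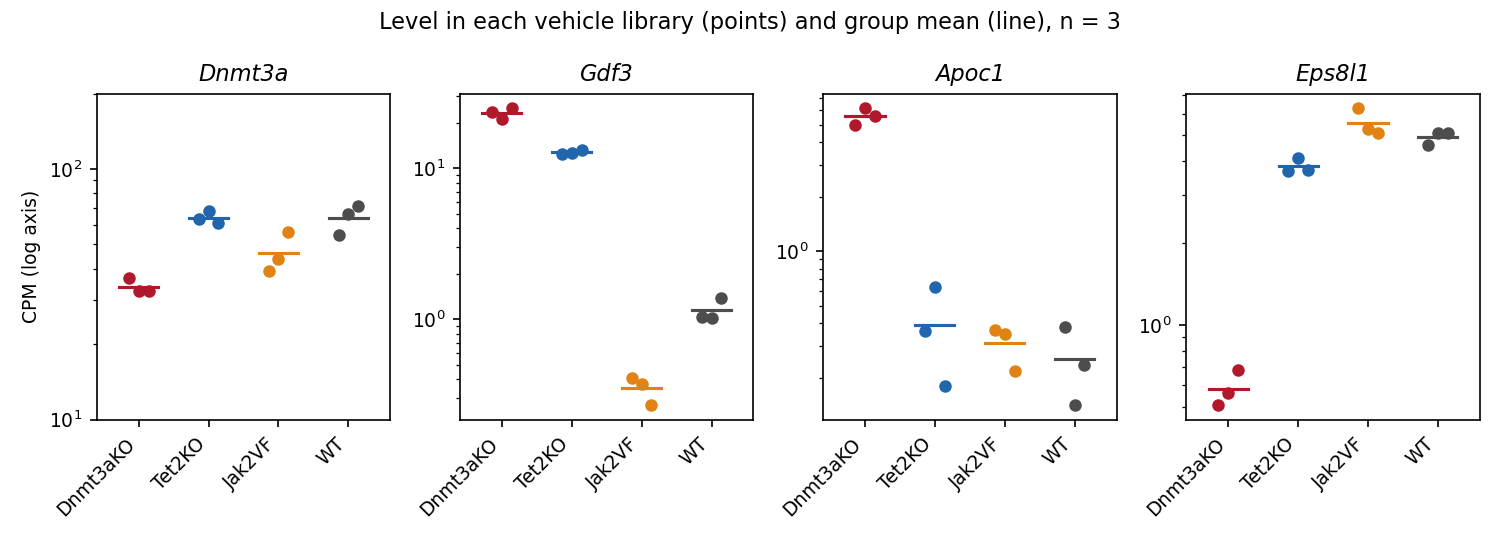
Level of Dnmt3a, Gdf3, Apoc1 and Eps8l1 in scaled counts (CPM, log axis) in each library of the 4 vehicle groups, Dnmt3aKO, Tet2KO, Jak2VF and WT; points are libraries and short lines are group means (n = 3). Gdf3 lies between 21.2 and 24.9 CPM in Dnmt3aKO and between 1.02 and 1.39 CPM in WT, and Eps8l1 between 0.508 and 0.68 CPM in Dnmt3aKO and between 4.59 and 5.09 CPM in WT.

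Because CG dinucleotides are the substrate of Dnmt3a, the promoter sequences of some of the genes with the largest changes are shown next. They were read from RefSeq's GRCm38.p6 windows, which run from 250 bases before to 50 bases after a gene's start, and are written 5' to 3' on the gene's strand with every CG in capitals. CG reads the same on both strands, so one strand shows all of them. Of the 30 genes with the largest rises and falls, 25 had a window. Shown first are 3 genes that rose, Krt7 (window chr15:101412153-101412452, plus strand, 1360 bases into the annotated gene), Marveld2 (chr13:100616922-100617221, minus strand) and Lrmda (chr14:22019462-22019761, plus strand).
Krt7: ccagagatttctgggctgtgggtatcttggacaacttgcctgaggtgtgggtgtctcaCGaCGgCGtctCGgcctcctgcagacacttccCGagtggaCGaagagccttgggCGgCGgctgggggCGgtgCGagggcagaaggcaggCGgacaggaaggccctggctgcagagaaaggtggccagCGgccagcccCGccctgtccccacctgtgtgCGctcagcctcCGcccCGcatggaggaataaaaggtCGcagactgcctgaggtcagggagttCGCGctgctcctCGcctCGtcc
Marveld2: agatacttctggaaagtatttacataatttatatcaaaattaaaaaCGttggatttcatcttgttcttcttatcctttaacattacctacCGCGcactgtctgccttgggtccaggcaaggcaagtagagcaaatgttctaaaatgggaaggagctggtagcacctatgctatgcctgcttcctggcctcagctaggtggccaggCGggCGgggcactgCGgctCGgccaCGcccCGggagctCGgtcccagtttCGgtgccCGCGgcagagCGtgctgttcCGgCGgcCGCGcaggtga
Lrmda: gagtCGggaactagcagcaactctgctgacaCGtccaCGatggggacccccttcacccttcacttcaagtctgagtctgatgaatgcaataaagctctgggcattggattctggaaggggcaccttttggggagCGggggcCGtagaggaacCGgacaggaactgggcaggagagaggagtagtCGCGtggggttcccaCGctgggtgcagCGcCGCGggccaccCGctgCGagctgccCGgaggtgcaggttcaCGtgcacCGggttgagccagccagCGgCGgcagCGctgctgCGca
Then follow 3 genes that fell, Eps8l1 (chr7:4460447-4460746, plus strand), Rhbdl2 (chr4:123787625-123787924, plus strand) and Cd207 (chr6:83677808-83678107, minus strand).
Eps8l1: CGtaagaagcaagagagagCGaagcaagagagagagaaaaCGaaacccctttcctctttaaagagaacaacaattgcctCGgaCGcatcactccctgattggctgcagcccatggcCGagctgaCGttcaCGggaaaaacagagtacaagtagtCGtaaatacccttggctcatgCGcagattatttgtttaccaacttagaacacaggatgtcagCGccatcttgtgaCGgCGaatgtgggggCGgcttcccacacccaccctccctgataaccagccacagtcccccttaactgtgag
Rhbdl2: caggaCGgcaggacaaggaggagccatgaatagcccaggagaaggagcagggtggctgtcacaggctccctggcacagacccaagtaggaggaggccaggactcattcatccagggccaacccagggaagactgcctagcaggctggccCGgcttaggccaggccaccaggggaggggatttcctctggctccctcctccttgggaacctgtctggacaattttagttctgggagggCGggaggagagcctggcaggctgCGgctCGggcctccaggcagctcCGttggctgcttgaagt
Cd207: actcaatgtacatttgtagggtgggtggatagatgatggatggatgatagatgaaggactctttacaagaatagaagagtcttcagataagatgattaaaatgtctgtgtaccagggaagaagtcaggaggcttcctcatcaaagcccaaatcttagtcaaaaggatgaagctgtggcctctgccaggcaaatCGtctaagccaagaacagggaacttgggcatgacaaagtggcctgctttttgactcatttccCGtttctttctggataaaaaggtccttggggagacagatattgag
The windows of Krt7, Marveld2 and Lrmda held 21, 18 and 21 CG dinucleotides, and those of Eps8l1, Rhbdl2 and Cd207 held 14, 6 and 2. Marveld2 and Rhbdl2 had 2 windows each and Eps8l1 had 3, and only the one nearest the annotated start is shown and counted. Over all 32851 windows in the table, 94.6% held at least 1 CG, the median was 7 and the quartiles were 3 and 20. These 6 windows belong to the 3 largest rises and the 3 largest falls that had a window within 2000 bases of the gene's annotated start, which Gja5 did not have. Whether any of these cytosines was methylated was not measured. CG content was not compared between risen and fallen genes, since only 63.4% of the tested genes and 70.5% of those that passed the test had a window.

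Across the transcriptome, 2157 of the 19444 genes tested differed between Dnmt3aKO and WT with vehicle (11.1%). Of these, 1085 were higher in Dnmt3aKO (5.58% of the genes tested) and 1072 were lower (5.51%), and the median log2 fold change over all tested genes was 0.00. The larger changes leaned upwards: 627 of the called genes changed by more than 1 on the log2 scale, of which 414 rose and 213 fell. The 3 and 3 libraries did not overlap for 2149 of the called genes (99.6%), nor for 6154 of all genes tested. A single gene compared by ranks in 3 against 3 libraries cannot go below p = 0.1 in a two-sided exact permutation test, so the calls rest on the spread estimated across all genes and libraries. When any one of the 6 libraries was left out, the count lay between 1558 and 1844.

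**Figure D2:**
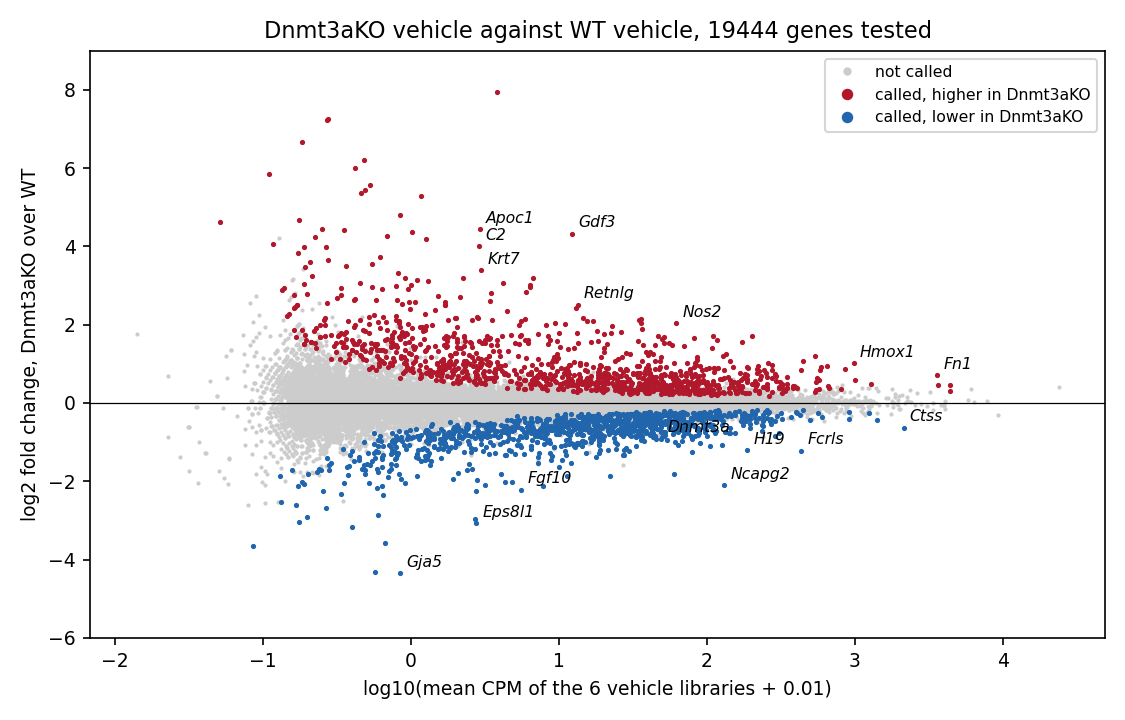
Log2 fold change of Dnmt3aKO over WT with vehicle (vertical axis) against the mean CPM of the 6 vehicle libraries on a log10 scale (horizontal axis) for each of the 19444 genes tested; coloured points passed an adjusted p of 0.05 (1085 higher and 1072 lower), and some of the named genes are labelled. Among the labelled genes Apoc1, Gdf3 and C2 are highest, at 4.43, 4.33 and 4.0, and Gja5 and Eps8l1 lowest, at -4.35 and -3.07; the points above them are genes outside the rule for named genes.

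Besides Gdf3 and Apoc1, the genes with the largest rises covered several unrelated functions. C2, the complement component that forms the catalytic part of the classical C3 convertase, stood at 5.3, 5.61 and 5.39 CPM in Dnmt3aKO, against 0.328, 0.283 and 0.393 CPM in WT (4.0 ± 0.21, adjusted p = 3.57e-11). Krt7, a keratin of simple epithelia, stood at 5.45, 5.43 and 5.49 CPM in Dnmt3aKO, against 0.519, 0.65 and 0.393 CPM in WT (3.39 ± 0.24). Marveld2, which encodes the tight junction protein tricellulin, stood at 1.53, 2.45 and 1.92 CPM in Dnmt3aKO, against 0.191, 0.283 and 0.184 CPM in WT (3.15 ± 0.31). Each of the 3 genes was near the lower limit of counting in WT and clearly counted in all 3 Dnmt3aKO libraries. Lrmda, named for a role in melanocyte differentiation, stood at 7.99, 7.88 and 6.65 CPM in Dnmt3aKO, against 1.04, 0.622 and 0.997 CPM in WT (3.08 ± 0.26). Tnfsf4, the OX40 ligand that costimulates T cells, stood at 1.79, 1.61 and 1.92 CPM in Dnmt3aKO, against 0.273, 0.198 and 0.184 CPM in WT (3.0 ± 0.25). Pdcd1, the inhibitory receptor PD-1, stood at 1.28, 1.28 and 1.54 CPM in Dnmt3aKO, against 0.218, 0.198 and 0.236 CPM in WT (2.63 ± 0.34). In each of these genes every Dnmt3aKO library was several times the highest WT library. The rule for the largest rises had required that the groups did not overlap.

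Calca, the gene of calcitonin and calcitonin gene-related peptide, rose by 2.58 ± 0.26, with 2.86, 2.96 and 2.87 CPM in Dnmt3aKO, against 0.601, 0.537 and 0.315 CPM in WT. Asprv1, a skin aspartic protease, rose by 2.82 ± 0.29 and Serpina3b, a serine protease inhibitor, by 2.73 ± 0.36. The paired X-linked genes Xlr3b and Xlr3c rose by 2.82 ± 0.14 and 3.0 ± 0.33. They are near-identical copies, so how reads were divided between them is uncertain. Xlr3b stood at 10.9, 10.3 and 10.2 CPM in Dnmt3aKO, 8.42, 8.45 and 7.55 CPM in Tet2KO, 2.17, 2.01 and 2.36 CPM in Jak2VF and 1.67, 1.36 and 1.39 CPM in WT, so that Dnmt3aKO and Tet2KO lay together above the other groups (direct test of Dnmt3aKO against Tet2KO 0.36 ± 0.12, adjusted p = 0.0779). The neutrophil gene Retnlg, described with the neutrophil markers, and Ms4a3, a membrane protein of granulocyte precursors (2.59 ± 0.35), completed the 15 largest rises.

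The 15 largest falls included genes for connexins, growth factors and secreted signals. Gja5, which encodes the gap junction protein connexin 40, held 2, 6 and 1 counts in the Dnmt3aKO libraries, against 53, 63 and 59 counts in WT (-4.35 ± 0.42, adjusted p = 3.44e-07). Summed over the libraries and corrected for their unscaled totals, that is a ratio of 0.05 of Dnmt3aKO to WT. Its 95% interval of 0.02 to 0.09 covers counting error alone. Gjb2, connexin 26, stood at 1.74, 2.09 and 1.86 CPM in Dnmt3aKO, against 7.86, 6.33 and 9.07 CPM in WT (-2.03 ± 0.15, adjusted p = 7.55e-09). Both connexin genes were thus low in every Dnmt3aKO library. Fgf10, a fibroblast growth factor of epithelial and fat tissue, stood at 2.01, 2.09 and 1.79 CPM in Dnmt3aKO, against 8.93, 9.33 and 9.07 CPM in WT (-2.21 ± 0.16, adjusted p = 4.77e-09). Il33, an alarmin cytokine of the IL-1 family, stood at 2.91, 2.98 and 2.87 CPM in Dnmt3aKO, against 11.3, 13.2 and 13.6 CPM in WT (-2.12 ± 0.14, adjusted p = 3.12e-09). Ptn, the heparin-binding growth factor pleiotrophin, stood at 0.751, 1.07 and 1.06 CPM in Dnmt3aKO, against 4.26, 4.61 and 4.8 CPM in WT (-2.24 ± 0.25). Within each group these 3 genes varied little. The rule for the largest falls required no overlap between the groups, so their separation was fixed by that choice.

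Ncapg2, a subunit of the condensin II complex that compacts chromosomes, had the largest fall among genes with over 100 CPM in WT. It stood at 48.2, 47.7 and 52.7 CPM in Dnmt3aKO, 245, 223 and 226 CPM in Tet2KO, 149.6, 171 and 193 CPM in Jak2VF and 191, 212 and 236 CPM in WT, so Dnmt3aKO alone was low (-2.10 ± 0.18 against WT, -2.22 ± 0.18 against Tet2KO and -1.79 ± 0.18 against Jak2VF). The other falls in this group were Rhbdl2, a rhomboid protease (-2.86 ± 0.31), Cd207, the Langerhans cell lectin langerin (-2.36 ± 0.29), Nkain4 (-2.11 ± 0.42), Gzmd, a granzyme (-2.11 ± 0.33), Cdcp1, a transmembrane glycoprotein (-2.05 ± 0.23), and Asb5 (-1.94 ± 0.19). The interferon-inducible genes Ifi213 and Ifi206 fell (-2.03 ± 0.56 and -1.98 ± 0.59), but they belong to a family of similar copies, and their calls ended when 1 library was left out (highest adjusted p = 0.0818 and 0.126).

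The called genes with the most counts had smaller changes than these. Glul, glutamine synthetase, stood at 887, 876 and 819 CPM in Dnmt3aKO, against 467, 436 and 426 CPM in WT (0.96 ± 0.08, adjusted p = 4.9e-08). Arg1, arginase, stood at 786, 746 and 702 CPM in Dnmt3aKO, against 393, 361 and 222 CPM in WT (1.20 ± 0.20). Pla2g7, the platelet-activating factor acetylhydrolase that travels on lipoproteins, rose by 0.85 ± 0.16. Fn1, fibronectin, and Timp3, a metalloproteinase inhibitor, rose by 0.71 ± 0.21 and 0.92 ± 0.29, but both calls ended when 1 library was left out (highest adjusted p = 0.154 without Dnmt3aKO library 1 and 0.184 without WT library 1). Fcrls, a receptor related to Fc receptors, stood at 269, 249.7 and 264 CPM in Dnmt3aKO, against 627, 590.1 and 601 CPM in WT (-1.22 ± 0.09, adjusted p = 1.62e-08). Ctss, a lysosomal cysteine protease, stood at 1636, 1758 and 1629.8 CPM in Dnmt3aKO, against 2922, 2488 and 2361 CPM in WT (-0.63 ± 0.15), and Cd72, an inhibitory receptor, fell (-0.71 ± 0.09).

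**Figure D3:**
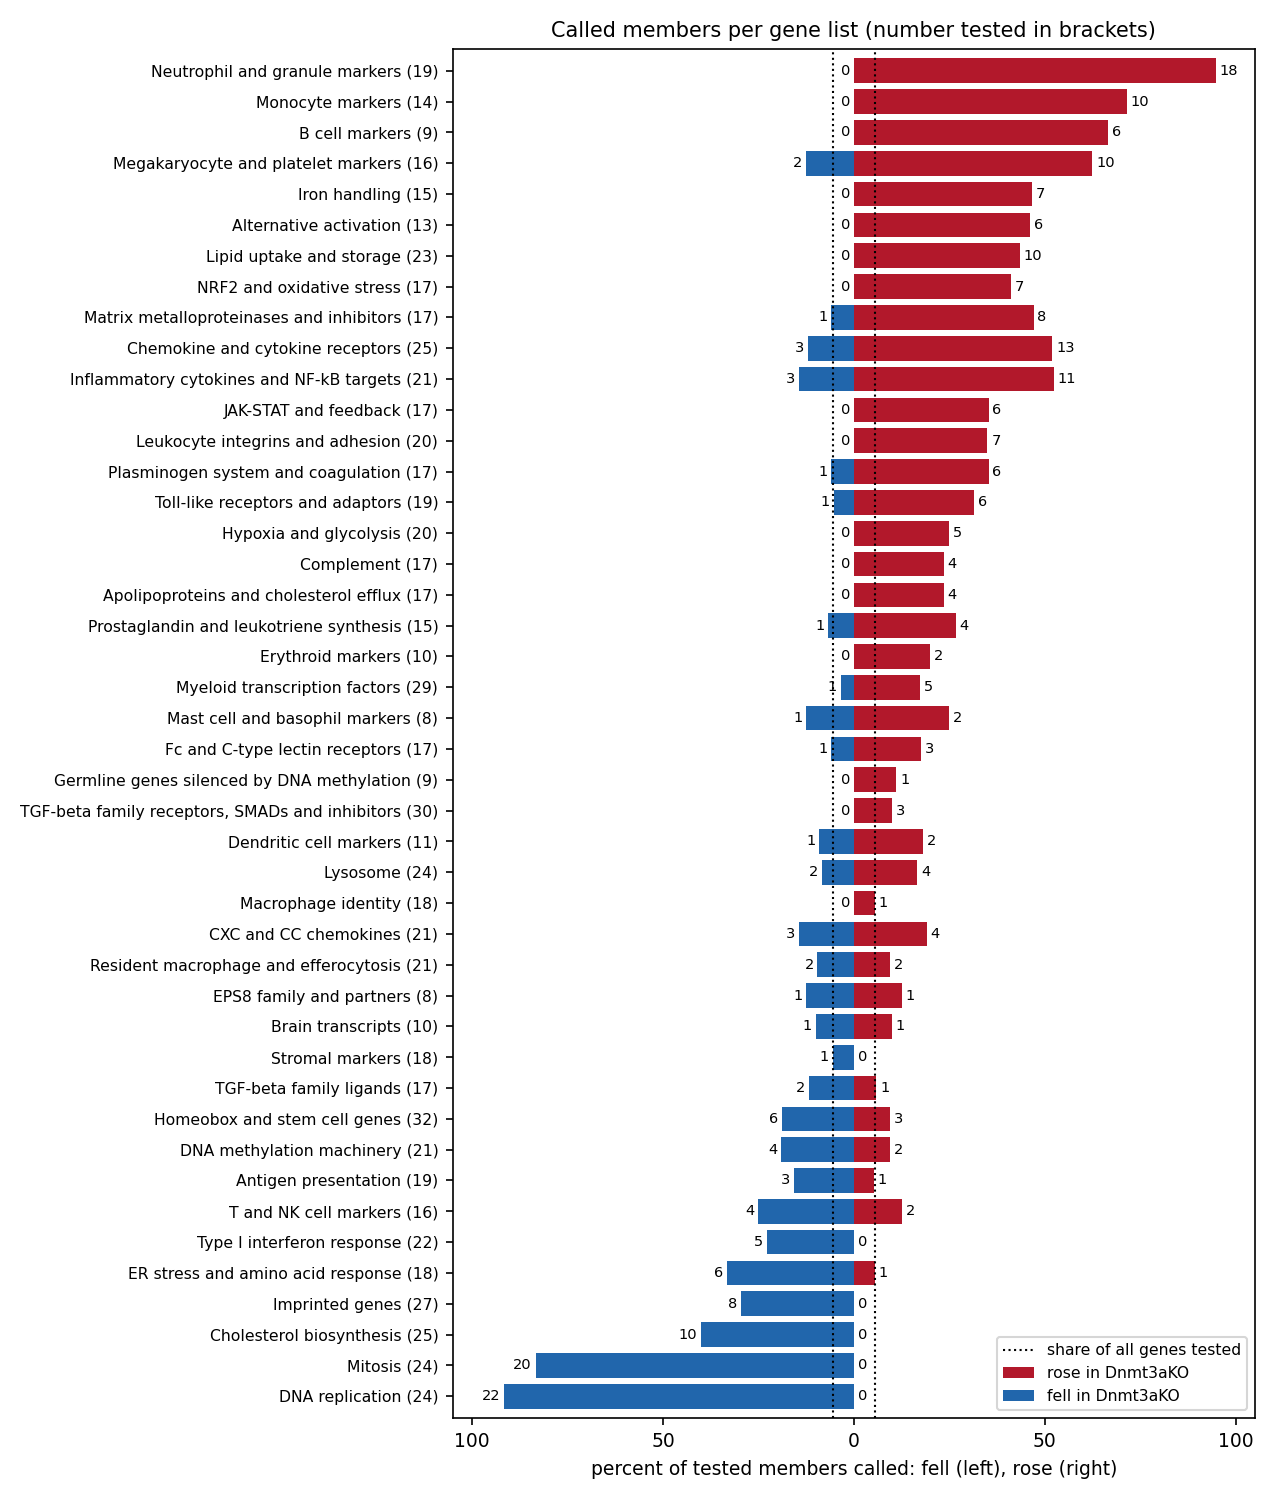
Number of genes that rose and fell with vehicle (adjusted p under 0.05) in each of 44 gene lists with at least 8 tested members, as a share of the list's tested members in percent; lists run down the page. DNA replication (22 of 24 fell), mitosis (20 of 24 fell) and the neutrophil list (18 of 19 rose) have the highest shares, against 5.58% higher and 5.51% lower over all genes tested.

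Of 21 genes of the DNA methylation machinery, 2 rose and 4 fell (median -0.04; 28.6% called, against 11.1% of all genes tested). The counts of every list below are to be read beside the shares over all genes tested, 5.58% higher and 5.51% lower. Besides Dnmt3a, the genes that fell were Tdg, the glycosylase that removes oxidised methylcytosine, at 28.1, 28 and 28.7 CPM in Dnmt3aKO, against 42.8, 43.7 and 44.7 CPM in WT (-0.63 ± 0.09, adjusted p = 7.26e-05); Uhrf1, which recruits the maintenance methyltransferase to replicating DNA (-0.69 ± 0.13); and Hells, a chromatin remodeller (-0.55 ± 0.18). Zbtb4, a reader of methylated DNA, rose to 111, 107 and 111 CPM in Dnmt3aKO, against 70.7, 78.5 and 78.8 CPM in WT (0.53 ± 0.12), and Dnmt3l, the inactive partner of Dnmt3a, rose by 0.85 ± 0.23. The calls of Hells and Dnmt3l ended when 1 library was left out (highest adjusted p = 0.158 and 0.133). The related methyltransferase Dnmt3b stood at 2.11, 2.17 and 1.81 CPM in Dnmt3aKO and 1.42, 1.53 and 1.94 CPM in WT, and Dnmt1 at 169, 148 and 167 CPM in Dnmt3aKO and 167, 202 and 209 CPM in WT. Neither passed the test (adjusted p = 0.361 and 0.26). Dnmt3b and Dnmt1 are named here as the other methyltransferases of the family and were chosen after their values were seen.

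Imprinted genes, which are read from one parental allele under control of DNA methylation, gave 0 rises and 8 falls among 27 tested (median -0.41). Igf2, insulin-like growth factor 2, stood at 6.05, 5.99 and 6.7 CPM in Dnmt3aKO, against 18.2, 18.9 and 16.8 CPM in WT (-1.52 ± 0.16, adjusted p = 8.25e-07). H19, the noncoding RNA next to Igf2 that is expressed from the opposite allele, also fell, to 115, 121 and 104 CPM in Dnmt3aKO, against 277, 269.5 and 239 CPM in WT (-1.21 ± 0.17, adjusted p = 3.07e-05). Both members of the pair were therefore lower in all 3 Dnmt3aKO libraries. Rian and Mirg, noncoding RNAs of one imprinted cluster, fell (-1.33 ± 0.16 and -1.19 ± 0.21), Peg10 (-1.13 ± 0.21) and the zinc finger gene Plagl1 (-0.74 ± 0.17). When only the 6 compared libraries were fitted, 1 imprinted gene rose. Of 27 germline genes known to be silenced by DNA methylation, 18 had too few counts to be tested. Of the 9 tested, 1 rose (11.1%, against 11.1% of all genes tested called in either direction). That gene was Dppa3 (also called Stella), at 4.04, 4.69 and 5.01 CPM in Dnmt3aKO, against 1.15, 1.1 and 0.734 CPM in WT (2.20 ± 0.25, adjusted p = 3.35e-06).

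Homeobox and stem cell genes showed 3 rises and 6 falls among 32 tested (28.1% called, against 11.1% of all genes tested). Hoxb4, a regulator of blood stem cell self-renewal, stood at 4.89, 5.76 and 5.32 CPM in Dnmt3aKO, against 10.9, 10.3 and 8.0 CPM in WT (-0.87 ± 0.12). Hmga2, a chromatin architectural protein, stood at 13, 12.4 and 13.5 CPM in Dnmt3aKO, against 21.5, 26 and 26.3 CPM in WT (-0.92 ± 0.13), and Gata2, a stem cell and mast cell factor, fell (-1.11 ± 0.23). The number that fell was 3 without Dnmt3aKO library 3 or WT library 1.

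Nearly all tested proliferation genes fell. Of 24 DNA replication genes, 22 fell and none rose (median -0.60), and of 24 mitosis genes, 20 fell and none rose (median -0.76), against 5.51% of all genes tested. Summed over the list, replication genes held 1112 to 1209 CPM in the Dnmt3aKO libraries and 1741 to 1790.5 CPM in WT, and mitosis genes 1301 to 1366 CPM in Dnmt3aKO and 2089 to 2416 CPM in WT. Mcm6, a subunit of the replicative helicase, stood at 111, 96.1 and 106 CPM in Dnmt3aKO, against 175, 182 and 173 CPM in WT (-0.76 ± 0.08, adjusted p = 1.94e-06). Pcna, the polymerase clamp, fell (-0.64 ± 0.10), as did Cdc45 (-0.69 ± 0.08) and Prim1, a primase subunit (-0.67 ± 0.08). Nusap1, a spindle protein, stood at 35.6, 37.9 and 37.1 CPM in Dnmt3aKO, against 64.4, 74.6 and 74.8 CPM in WT (-0.95 ± 0.10, adjusted p = 1.94e-06). Kif23, a kinesin of cell division, fell (-0.91 ± 0.10), Aurkb, a mitotic kinase, (-0.75 ± 0.09), and Cdk1, the main mitotic cyclin-dependent kinase, (-0.66 ± 0.09). Every library of Dnmt3aKO lay below every library of WT for each of these genes, but the libraries did not overlap for 99.6% of all called genes.

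The called genes of lipid uptake and storage were all higher in Dnmt3aKO, and those of cholesterol synthesis were all lower. Of 23 uptake and storage genes, 10 rose and none fell (median 0.37). Cd36, a scavenger receptor for oxidised lipoprotein and fatty acids, stood at 641, 571 and 607 CPM in Dnmt3aKO, 154, 171 and 181 CPM in Tet2KO, 135, 164 and 151 CPM in Jak2VF and 270.1, 291 and 299 CPM in WT. Dnmt3aKO was thus the highest of the 4 groups for Cd36 (1.08 ± 0.10 against WT, adjusted p = 9.63e-08; 1.84 ± 0.10 against Tet2KO, adjusted p = 2.76e-11; 2.01 ± 0.10 against Jak2VF, adjusted p = 9.13e-12). Plin2, the main lipid droplet coat protein, stood at 1113, 1149 and 1038 CPM in Dnmt3aKO, against 679, 594 and 550.5 CPM in WT (0.86 ± 0.12, adjusted p = 4.81e-05). Hilpda, an inhibitor of lipid droplet breakdown, rose by 1.48 ± 0.18, Angptl4, an inhibitor of lipoprotein lipase, by 1.61 ± 0.20, Fabp4, a fatty acid carrier, by 0.87 ± 0.13, and Gpnmb by 0.46 ± 0.08. Of 17 apolipoprotein and efflux genes, 4 rose and none fell, among them Apoc1 and the efflux transporter Abcg1 (37.8, 36.6 and 33.8 CPM in Dnmt3aKO, against 25.5, 23.2 and 24.1 CPM in WT; 0.57 ± 0.10). Abca1, the transporter that loads cholesterol onto apolipoprotein A1, rose by 0.63 ± 0.18, a call that ended when 1 library was left out (highest adjusted p = 0.107, without WT library 1).

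Of 25 cholesterol biosynthesis genes, 10 fell and none rose (median -0.28), or 5 fell where no filter on low counts was used. Hmgcs1, an early enzyme of the pathway, stood at 60.8, 68.5 and 65.3 CPM in Dnmt3aKO, against 86.2, 93.8 and 95.4 CPM in WT (-0.50 ± 0.08, adjusted p = 0.000244). The enzyme genes Idi1 (-0.54 ± 0.08), Cyp51 (-0.48 ± 0.08) and Acat2 (-0.63 ± 0.10) fell as well. Of 24 lysosome genes, 4 rose and 2 fell, and the number that rose was 2 without Dnmt3aKO library 1 or WT library 3. Atp6v0d2, a subunit of the lysosomal proton pump, rose by 0.62 ± 0.13, and Mcoln1, a lysosomal calcium channel, by 0.37 ± 0.06.

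The inflammatory list gave 11 rises and 3 falls among 21 genes tested (median 0.48). Nos2, the inducible nitric oxide synthase, stood at 101, 96.7 and 101 CPM in Dnmt3aKO, against 23.2, 31.8 and 17.7 CPM in WT (2.04 ± 0.17, adjusted p = 4.46e-08). Il1b, interleukin 1 beta, stood at 94, 154 and 122 CPM in Dnmt3aKO, against 56.5, 37.9 and 23.8 CPM in WT (1.65 ± 0.29, adjusted p = 0.000379). Il1a, its relative, held under 1 CPM in all libraries but was higher in each Dnmt3aKO library (2.19 ± 0.31). Il1rn, the natural antagonist of both cytokines, went the other way, with 49.6, 49.5 and 44.5 CPM in Dnmt3aKO and 76.3, 80.3 and 84.5 CPM in WT (-0.75 ± 0.09, adjusted p = 4e-06). Nfkbia, an inhibitor of the NF-kB pathway, and Nfkbiz rose by 0.73 ± 0.10 and 0.58 ± 0.07. Of 19 Toll-like receptor genes 6 rose and 1 fell. Tlr5 rose by 0.97 ± 0.21, Irak3 by 0.74 ± 0.10 and Tlr2 by 0.74 ± 0.10, while Tlr1 fell (-0.43 ± 0.09). Of 17 Fc and C-type lectin receptors 3 rose and 1 fell. Clec4e, the receptor Mincle, stood at 71.5, 78.6 and 76.9 CPM in Dnmt3aKO, against 26.3, 25.8 and 20.9 CPM in WT (1.64 ± 0.12), and Clec7a, the beta-glucan receptor, rose by 1.06 ± 0.13.

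Of 17 JAK-STAT and feedback genes, 6 rose and none fell, among them Socs3 (0.74 ± 0.10), Osm (0.59 ± 0.10), Pim1 (0.49 ± 0.09) and Stat3 (0.41 ± 0.09). Of 13 alternative activation genes 6 rose and none fell (median 0.01), including Chil3 (1.03 ± 0.13), Arg1 and the chemokine Ccl22 (1.68 ± 0.22). The other 7, Mrc1, Mgl2, Cd163, Clec10a, Tgm2, Socs2 and Il4ra, did not pass the test. The number that rose was 4 without Dnmt3aKO library 1 or 2 or WT library 1 or 2, and 1 fell without Dnmt3aKO library 2. Chemokine genes were mixed, with 4 rises and 3 falls among 21: Cxcl1 rose by 0.77 ± 0.17 and Cxcl14 by 0.88 ± 0.15, whereas Ccl4 stood at 6.85, 5.2 and 5.24 CPM in Dnmt3aKO, against 11.9, 12.3 and 11.1 CPM in WT (-1.03 ± 0.17). Chemokine and cytokine receptors gave 13 rises and 3 falls among 25 (median 0.33). Csf2rb, the shared beta chain of the GM-CSF, IL-3 and IL-5 receptors, stood at 323, 313 and 298 CPM in Dnmt3aKO, against 175, 173 and 169 CPM in WT (0.85 ± 0.08), and Tnfrsf1b, a TNF receptor, rose by 0.66 ± 0.07. Ccr3, a chemokine receptor, stood at 8.47, 7.6 and 8.14 CPM in Dnmt3aKO, against 17.1, 17.4 and 17 CPM in WT (-1.09 ± 0.08).

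Of 20 leukocyte integrin and adhesion genes 7 rose and none fell. Itgal, the alpha chain of the integrin LFA-1, stood at 70.2, 73.6 and 72.2 CPM in Dnmt3aKO, against 42.1, 42 and 42.6 CPM in WT (0.77 ± 0.11), and Itgb2, its beta chain, rose by 0.44 ± 0.07. Of 29 myeloid transcription factors 5 rose and 1 fell. Fos, an immediate early factor, stood at 126, 131 and 124 CPM in Dnmt3aKO, against 76.7, 69.2 and 64.8 CPM in WT (0.86 ± 0.09, adjusted p = 5.01e-07), Irf4, a factor of lymphoid and alternatively activated cells, rose by 1.22 ± 0.27, and Runx3, a runt family factor, fell (-0.61 ± 0.07, adjusted p = 5.39e-06). Of 17 TGF-beta family ligands Gdf3 rose and Gdf11 and Bmp4 fell, and of 8 genes of the EPS8 family and its partners Eps8l2 rose (0.82 ± 0.26, adjusted p = 0.0412) while Eps8l1 fell. The calls of Gdf11, Bmp4 and Eps8l2 ended when 1 library was left out (highest adjusted p = 0.0718, 0.136 and 0.2). Gdf3 and Eps8l1 were thus far larger changes than any other member of their lists.

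The called interferon response genes were all lower in Dnmt3aKO, but their number depended on single libraries. Of 22 type I interferon genes 5 fell and none rose, with a median of -0.96, and the summed list held 485 to 515 CPM in the Dnmt3aKO libraries and 645 to 889 CPM in WT. Oasl1, an interferon-induced antiviral protein, stood at 1.72, 2.04 and 1.61 CPM in Dnmt3aKO, against 8.52, 4.47 and 5.88 CPM in WT (-1.81 ± 0.39, adjusted p = 0.00316). Ifit2, another antiviral protein, stood at 15.9, 18.4 and 19.2 CPM in Dnmt3aKO, against 44.6, 29.7 and 44 CPM in WT (-1.15 ± 0.25, adjusted p = 0.00345). For both genes WT library 2 was the lowest of the WT libraries and still above every Dnmt3aKO library. The count of 5 was not stable: 2 genes fell without any one of the Dnmt3aKO libraries, WT library 1 or WT library 3, while 16 fell with no filter on low counts and 18 when only the 6 compared libraries were fitted. Of 19 antigen presentation genes 1 rose and 3 fell (21.1% called, against 11.1% of all genes tested), and without any one library at most 1 gene of the list fell.

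Some genes of oxidative stress, hypoxia and iron handling rose. Of 17 NRF2 and oxidative stress genes 7 rose and none fell (median 0.34), or 11 rose when only the 6 compared libraries were fitted. Hmox1, the haem-degrading enzyme, stood at 1423, 1222 and 1296 CPM in Dnmt3aKO, 639, 648 and 686 CPM in Tet2KO, 443, 456 and 416 CPM in Jak2VF and 732, 688 and 536 CPM in WT (1.01 ± 0.13 against WT, adjusted p = 1.12e-05). Gclm, a subunit of the enzyme that starts glutathione synthesis, stood at 114, 124 and 118 CPM in Dnmt3aKO, against 65.5, 61.1 and 57.5 CPM in WT (0.95 ± 0.09, adjusted p = 3.21e-07), and Slc7a11, the cystine importer, rose by 1.49 ± 0.20. Of 20 hypoxia and glycolysis genes 5 rose and none fell. Car9, a carbonic anhydrase induced by low oxygen, stood at 60.8, 53.1 and 54.6 CPM in Dnmt3aKO, against 14.7, 13.3 and 10.9 CPM in WT (2.11 ± 0.16, adjusted p = 1.12e-08). Vegfa, a growth factor of blood vessels, rose by 0.97 ± 0.10 and Egln3, an oxygen-sensing prolyl hydroxylase, by 1.21 ± 0.13. Of 15 iron handling genes 7 rose and none fell, or 4 without WT library 3, and these included Slc40a1, the iron exporter ferroportin (1.17 ± 0.14), and Slc11a1, a metal transporter of phagosomes (0.88 ± 0.09). Of 18 ER stress and amino acid response genes 1 rose and 6 fell, among them Slc7a5, a neutral amino acid importer (-0.98 ± 0.16), and Asns, asparagine synthetase (-0.68 ± 0.13).

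Genes of the matrix and of coagulation rose more often than they fell. Of 17 matrix metalloproteinase genes and their inhibitors 8 rose and 1 fell. Mmp13, a collagenase, stood at 270.4, 359 and 302 CPM in Dnmt3aKO, against 101, 99.6 and 84.9 CPM in WT (1.71 ± 0.18, adjusted p = 1.04e-06), Mmp12, the macrophage elastase, rose by 0.68 ± 0.13, and Mmp27 fell (-0.74 ± 0.09). Of 17 plasminogen and coagulation genes 6 rose and 1 fell. F10, coagulation factor X, rose by 1.58 ± 0.20, Procr, the protein C receptor, stood at 40.4, 40.5 and 39.1 CPM in Dnmt3aKO, against 18.6, 16.7 and 14.5 CPM in WT (1.27 ± 0.15), and Plat, tissue plasminogen activator, fell (-0.46 ± 0.10). Of 17 complement genes 4 rose and none fell, among them C2, above, and C3 (138, 158 and 143 CPM in Dnmt3aKO, against 86.1, 80.4 and 73 CPM in WT; 0.87 ± 0.11). Of 30 TGF-beta receptors, SMADs and inhibitors 3 rose (10.0%, against 11.1% of all genes tested called in either direction). They were the co-receptor Eng (0.72 ± 0.10), the type I receptor Acvrl1 (0.57 ± 0.11) and the matrix binding protein Ltbp2 (0.65 ± 0.13). Of 15 prostaglandin and leukotriene genes 4 rose and 1 fell: Ptges, a prostaglandin E synthase, rose by 0.64 ± 0.10, Alox5, the first enzyme of leukotriene synthesis, by 0.64 ± 0.12, and Hpgd, which degrades prostaglandins, fell (-0.58 ± 0.09).

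Macrophage markers were counted at high levels in all 6 libraries, and the defining ones did not pass the test between genotypes. Csf1r, the M-CSF receptor, stood at 2367, 2384 and 2363 CPM in Dnmt3aKO and 2199, 2100.5 and 2098 CPM in WT, and Adgre1, the antigen F4/80, at 1116, 1056 and 1098 CPM in Dnmt3aKO and 1186, 1160.3 and 1228 CPM in WT. Neither passed the test (adjusted p = 0.199 and 0.271). Of 18 macrophage identity genes 1 rose, Cd14 (0.58 ± 0.15), and its call ended without WT library 3 (adjusted p = 0.0952). The summed list held 38509.9 to 40801 CPM in the Dnmt3aKO libraries and 28858 to 35748 CPM in WT. Among resident macrophage and efferocytosis genes 2 rose and 2 fell of 21. The number that rose was 1 without Dnmt3aKO library 2 or 3 or WT library 2 or 3, and the number that fell was 1 without Dnmt3aKO library 2 or 3 or WT library 1 or 2. Cd5l, a scavenger protein secreted by tissue macrophages, stood at 52.1, 45.8 and 44.1 CPM in Dnmt3aKO, against 116, 107 and 115 CPM in WT (-1.25 ± 0.19).

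Markers of other blood cells moved with the genotype. Of 19 neutrophil and granule genes 18 rose and none fell (median 1.72), against 5.58% of all genes tested, and their sum was 889 to 953 CPM in the Dnmt3aKO libraries and 277 to 347 CPM in WT. Ltf, lactoferrin of granules, stood at 81.2, 85.5 and 79.2 CPM in Dnmt3aKO, 4.13, 4.88 and 3.97 CPM in Tet2KO, 74.6, 83 and 69.3 CPM in Jak2VF and 29.2, 32.4 and 23.3 CPM in WT (1.54 ± 0.12 against WT, adjusted p = 2.88e-08). Retnlg, a resistin-like secreted protein, stood at 23, 24.1 and 21.3 CPM in Dnmt3aKO, 0.542, 0.595 and 0.438 CPM in Tet2KO, 18.6, 19.3 and 12.9 CPM in Jak2VF and 4.83, 4.07 and 3.09 CPM in WT. For both genes Dnmt3aKO and Jak2VF were high and Tet2KO was low. Csf3r, the G-CSF receptor, Cxcr2, a receptor for neutrophil chemokines, and Mmp8, neutrophil collagenase, are members of this list as well as of the lists above, and rose by 1.19 ± 0.10, 2.0 ± 0.17 and 1.46 ± 0.12. The defining marker Ly6g was barely counted, at 0.291, 0.255 and 0.227 CPM in Dnmt3aKO and 0.0819, 0.0565 and 0.105 CPM in WT (adjusted p = 0.204), whereas S100a8 stood at 179, 174 and 157 CPM in Dnmt3aKO and 61.9, 52.6 and 40.4 CPM in WT (1.72 ± 0.21).

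Of 14 monocyte markers 10 rose and none fell (median 0.87), with sums of 2247 to 2322 CPM in the Dnmt3aKO libraries and 1374 to 1467 CPM in WT. Ly6c2, the surface antigen of inflammatory monocytes, stood at 22.4, 27 and 21.9 CPM in Dnmt3aKO, against 6.33, 5.43 and 3.96 CPM in WT (2.18 ± 0.19, adjusted p = 9.63e-08). Of 9 B cell markers 6 rose and none fell, with sums of 223 to 241 CPM in Dnmt3aKO and 137 to 163 CPM in WT. Cd79a, a chain of the B cell receptor complex, stood at 8.45, 7.7 and 6.25 CPM in Dnmt3aKO, against 3.33, 2.23 and 2.12 CPM in WT (1.54 ± 0.24, adjusted p = 0.000117). Of 108 immunoglobulin variable segments tested 41 rose and 3 fell, and their counts summed to 99.4, 89.5 and 89.2 CPM in the Dnmt3aKO libraries, against 30.8, 25.3 and 26.3 CPM in WT. Of 16 megakaryocyte and platelet markers 10 rose and 2 fell, among them Itga2b (1.24 ± 0.20) and Gp9 (2.03 ± 0.30), but the list's sum was 595 to 678 CPM in Dnmt3aKO and 658 to 961 CPM in WT.

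T and NK cell markers gave 2 rises and 4 falls among 16 (37.5% called, against 11.1% of all genes tested). Their sums were 119.8 to 127 CPM in Dnmt3aKO and 94.5 to 97.9 CPM in WT. The defining T cell markers Cd3e and Lck did not pass the test, at 0.266, 0.102 and 0.378 CPM in Dnmt3aKO and 0.328, 0.424 and 0.341 CPM in WT for Cd3e. The number that fell was 2 without Dnmt3aKO library 1, WT library 1 or WT library 2. Stromal genes gave 1 fall and no rise among 18, or no fall without Dnmt3aKO library 2 or 3 or WT library 1 or 2, with sums of 18164 to 18761 CPM in Dnmt3aKO and 18393 to 19485 CPM in WT, and Col1a1, the collagen chain that marks fibroblasts, stood at 3657, 3863 and 4134 CPM in Dnmt3aKO and 3884, 4039.8 and 4443 CPM in WT. Collagen transcripts were therefore counted in both genotypes, with overlapping levels. Of 11 dendritic cell markers 2 rose and 1 fell, and of 8 mast cell and basophil markers 2 rose and 1 fell. Of 10 erythroid markers 2 rose and none fell, and of 10 brain transcripts 1 rose and 1 fell. In that order 27.3%, 37.5%, 20.0% and 20.0% were called, against 11.1% of all genes tested. When 1 library was left out, 1 dendritic marker rose without Dnmt3aKO library 1 or 2 or WT library 2 or 3, and none fell without Dnmt3aKO library 2 or 3 or WT library 1. Of the mast cell markers 1 rose without Dnmt3aKO library 1 or WT library 1 or 3, of the erythroid markers 1 rose and 1 fell without WT library 3, and of the brain transcripts none rose without WT library 3 and 2 rose without Dnmt3aKO library 2. Their defining markers Xcr1, Flt3, Cpa3, Hbb-bs and Gfap were under 1 CPM in all 6 libraries. Hdc, the histamine-forming enzyme of basophils and neutrophils, stood at 8.52, 8.57 and 8.49 CPM in Dnmt3aKO, against 2.35, 2.69 and 1.42 CPM in WT (1.99 ± 0.19). The part of neutrophil, monocyte, B cell and platelet transcripts in the gene group results above was not tested.

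**Figure D4:**
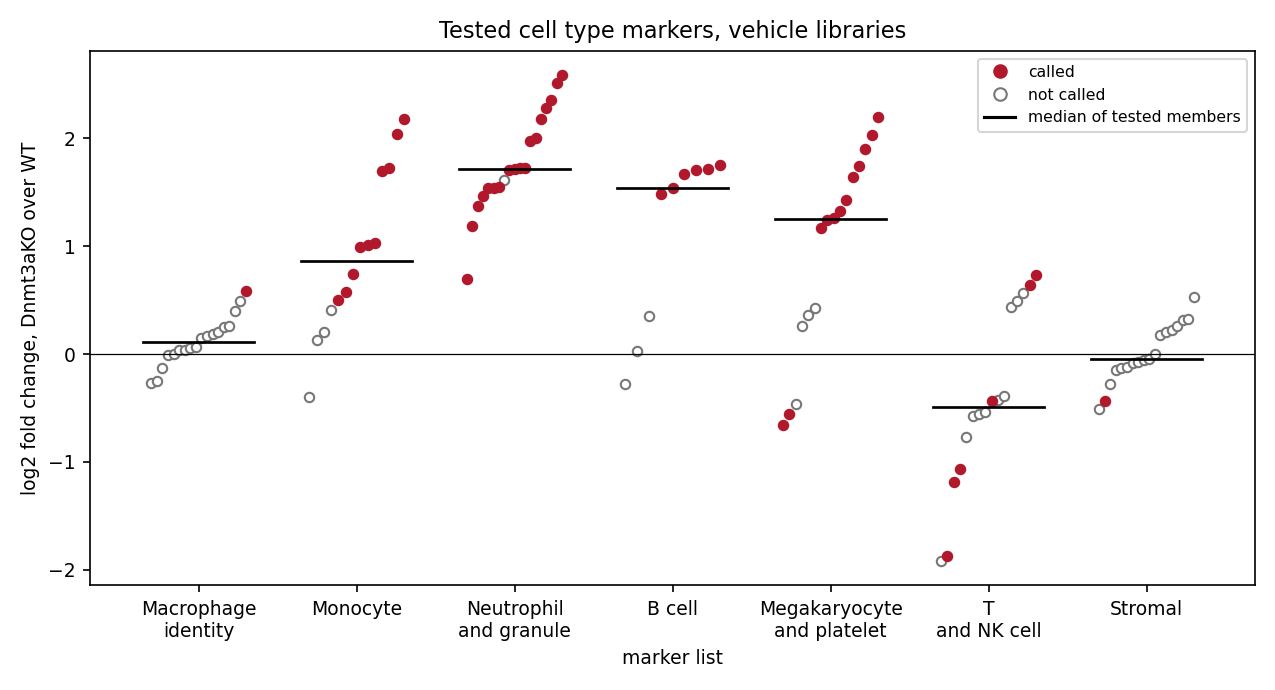
Log2 fold change of Dnmt3aKO over WT with vehicle (vertical axis) for every tested marker of 7 cell type lists (horizontal axis, members in order of their value); filled points passed an adjusted p of 0.05, open points did not, and lines are medians of the tested members. In the neutrophil list 18 of 19 points are filled and all lie above 0, whereas 1 of 18 is filled in each of the macrophage identity and stromal lists.

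The same contrast in LDL shows how far the vehicle differences persist when the cells are loaded with lipoprotein. With LDL, 3397 genes differed between Dnmt3aKO and WT (17.5%). Of these, 1235 were also called with vehicle, which is 57.3% of the vehicle calls and 36.4% of the LDL calls, and 1225 had the same direction in both. The vehicle and LDL comparisons share no library. The LDL count was 5658 without WT LDL library 2 and 1838 to 2291 without any one of the other 5 LDL libraries. Gdf3 stood at 16.2, 17.9 and 15.6 CPM in Dnmt3aKO with LDL, against 0.947, 0.909 and 0.721 CPM in WT with LDL (4.26 ± 0.17), and Eps8l1 at 0.418, 0.524 and 0.503 CPM in Dnmt3aKO with LDL, against 7.21, 6.37 and 5.54 CPM in WT with LDL (-3.70 ± 0.16). Both genes thus differed between the genotypes in each condition without overlap, and neither passed the test of the vehicle effect against the LDL effect (adjusted p = 0.904 and 0.287). The test of the difference between the vehicle and LDL effects, the interaction of genotype and LDL, passed for 84 genes (0.432%), of which 46 were among the vehicle calls (2.13% of them). That count was 731 without WT LDL library 2 and 41 to 132 without any one of the other 11 libraries.

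Several of the genes described above were among those whose genotype effect differed with LDL. Angptl4 stood at 149.7, 213 and 169 CPM in Dnmt3aKO with vehicle, against 77.3, 50.1 and 47.3 CPM in WT with vehicle, and at 247, 272 and 265 CPM in Dnmt3aKO with LDL, against 352, 236 and 285 CPM in WT with LDL, so the groups overlapped only with LDL (interaction -1.76 ± 0.28, adjusted p = 0.00324). Cdcp1 stood at 0.339, 0.408 and 0.302 CPM in Dnmt3aKO with vehicle, against 1.58, 1.7 and 1.1 CPM in WT with vehicle, and at 2.47, 2.1 and 2.71 CPM in Dnmt3aKO with LDL, against 3.2, 2.34 and 2.92 CPM in WT with LDL (interaction 1.83 ± 0.30, adjusted p = 0.00376). For Cdcp1 the genotypes thus overlapped with LDL and not with vehicle. Bmp4, a bone morphogenetic protein, had a log2 fold change of -0.58 ± 0.17 with vehicle and -2.45 ± 0.20 with LDL (interaction -1.88 ± 0.26, adjusted p = 0.00117), its vehicle call ending when 1 library was left out (highest adjusted p = 0.136). Ptges rose by 0.64 ± 0.10 with vehicle and by 1.51 ± 0.10 with LDL, where it stood at 173, 165 and 174 CPM in Dnmt3aKO, against 60.4, 52.3 and 67.3 CPM in WT (interaction 0.86 ± 0.14, adjusted p = 0.00332).

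**Figure D5:**
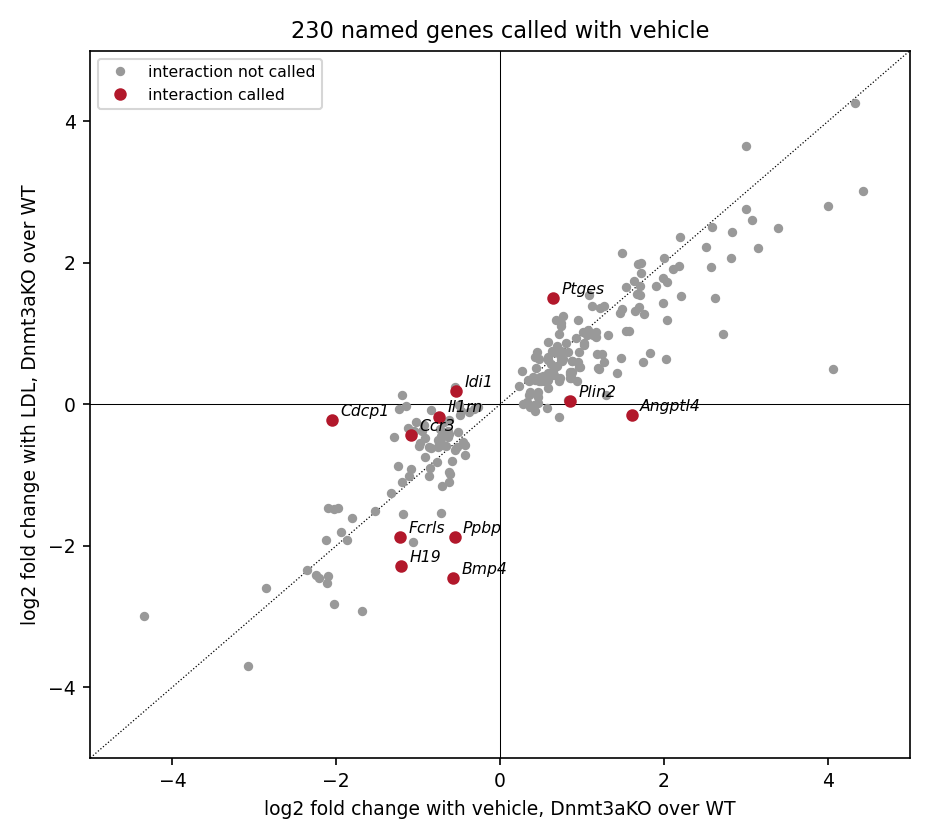
Log2 fold change of Dnmt3aKO over WT with LDL (vertical axis) against that with vehicle (horizontal axis) for the 230 named genes called with vehicle; the 11 genes past the interaction test are coloured and labelled. The sign is the same in both conditions for 221 of the 230 genes, which were chosen for their vehicle calls; over all vehicle calls it was the same for 90.9%, and over all genes tested for 63.9%.

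Set against the other mutant genotypes with vehicle, Dnmt3aKO differed from Tet2KO in 1707 genes (8.78%; 913 higher and 794 lower) and from Jak2VF in 3729 genes (19.2%; 1942 higher and 1787 lower). When libraries were scaled by their totals alone, the split was 695 higher and 1107 lower against Tet2KO, and 1327 higher and 2499 lower against Jak2VF. These 2 comparisons use the same 3 Dnmt3aKO libraries as the comparison with WT. Il33 stood at 2.91, 2.98 and 2.87 CPM in Dnmt3aKO, 18.1, 22.2 and 19.8 CPM in Tet2KO, 15.2, 19 and 22.7 CPM in Jak2VF and 11.3, 13.2 and 13.6 CPM in WT, and Dnmt3aKO was below both other mutants (-2.77 ± 0.15, adjusted p = 2.76e-11, and -2.70 ± 0.15, adjusted p = 4.97e-11). Gjb2 stood at 1.74, 2.09 and 1.86 CPM in Dnmt3aKO, 8.21, 10.9 and 10.8 CPM in Tet2KO, 15.7, 15.3 and 15.4 CPM in Jak2VF and 7.86, 6.33 and 9.07 CPM in WT, again with Dnmt3aKO below both (-2.39 ± 0.15, adjusted p = 3.09e-10, and -3.02 ± 0.15, adjusted p = 9.13e-12). C2 and Krt7 exceeded both other mutants, C2 by 3.34 ± 0.20 against Tet2KO and 3.59 ± 0.20 against Jak2VF, and Krt7 by 2.96 ± 0.23 and 3.21 ± 0.23 in the same order. Car9 did so as well, with 14.8, 17.5 and 20.2 CPM in Tet2KO and 10.4, 16.1 and 13 CPM in Jak2VF (1.68 ± 0.16, adjusted p = 1.44e-07, and 2.09 ± 0.16, adjusted p = 9.92e-09). Not every change set Dnmt3aKO apart: Tlr2 stood at 208, 247 and 221 CPM in Dnmt3aKO, 243, 240.5 and 193 CPM in Tet2KO, 199, 172 and 159 CPM in Jak2VF and 149.8, 128 and 127 CPM in WT, and Dnmt3aKO and Tet2KO overlapped (direct test adjusted p = 0.996).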

How the data were processed

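RNA was extracted with Trizol and RNeasy columns, treated with DNase and Ribo-Zero, and made into poly-A selected libraries, per the labels' protocols. The authors deposited a table of counts per gene, on genome build mm10 per the submitters' processing notes. The table is named as normalized, but all its values were whole numbers. Every whole number from 1 to 50 occurred in each library, and its library totals ran from 24105237 to 43904761, so it was treated as raw counts. Aligner, counter and strand setting were not stated in those notes or in the labels, so antisense, overlapping and near-identical genes are uncertain. Gene positions are from GENCODE M21 (GRCm38). All 24 libraries of the table were fitted together with edgeR 4.0.16 (R 4.3.3), one mean per group, TMM scaling and 16 residual degrees of freedom. Genes needed at least 10 counts in at least 3 libraries. Tests were quasi-likelihood, two-sided and Benjamini-Hochberg adjusted, and the procedure was tested on simulated data. CPM values are counts over the scaled library totals. The genes named were the given markers, the 15 largest rises and falls (called, with no overlap, at least 1 CPM in the higher group and a symbol of their own), the 8 rises and 8 falls with the most CPM, up to 6 called genes per list and defining cell type markers. The comparison, its markers and the gene lists were chosen with earlier results of these data known. Deviations of same-numbered libraries of the groups had correlations of mixed sign. They were -0.292, -0.288 and 0.321 by title number, and 0.294 and -0.404 by description number, so the main design has no pairing. Alternatives used limma 3.58.1 and DESeq2 1.42.0. A separate table labelled batch 1, without Dnmt3aKO, was not used. A few called genes of the lists are not reported here.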

Additional observations from a re-analysis of the deposited data

Results flagged for a closer look

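For 11 of the named genes, the difference between Dnmt3aKO and WT with LDL was not the same as with vehicle, by the interaction term of edgeR's quasi-likelihood test (3 libraries per group). Values are the log2 effect with LDL minus the log2 effect with vehicle. The signed log2 effect was lower with LDL for Bmp4 (-1.88, adjusted p = 0.00117), Angptl4 (-1.76, adjusted p = 0.00324), the platelet chemokine Ppbp (-1.32, adjusted p = 0.00117), H19 (-1.08, adjusted p = 0.0488), Plin2 (-0.81, adjusted p = 0.0391) and Fcrls (-0.66, adjusted p = 0.0231). Of these, Bmp4, Ppbp, H19 and Fcrls fell further with LDL (-2.45, -1.88, -2.28 and -1.88) than with vehicle (-0.58, -0.55, -1.21 and -1.22). Angptl4 and Plin2 were at -0.16 and 0.04 with LDL, against 1.61 and 0.86 with vehicle. It was higher with LDL for Cdcp1 (1.83, adjusted p = 0.00376), Ptges (0.86, adjusted p = 0.00332), Idi1 (0.72, adjusted p = 0.00489), Ccr3 (0.66, adjusted p = 0.00842) and Il1rn (0.57, adjusted p = 0.0401). Among these, Ptges rose further with LDL (1.51, against 0.64 with vehicle). The effects on Cdcp1, Ccr3 and Il1rn were smaller with LDL (-0.22, -0.43 and -0.17) than with vehicle (-2.05, -1.09 and -0.75). Idi1 was at 0.18 with LDL and -0.54 with vehicle. When each of the 12 Dnmt3aKO and WT libraries was left out in turn, Angptl4, Bmp4, Ccr3, Cdcp1, Idi1, Ppbp and Ptges passed the test each time. Among the other settings, the call of Ccr3 ended with no filter on low counts and with the description number as a replicate block, and that of Idi1 when only the compared libraries were fitted. With a library left out, Fcrls and Il1rn each failed the test in 8 of the 12 cases (highest adjusted p = 0.0945 and 0.14), and H19 and Plin2 in 10 (highest adjusted p = 0.155 and 0.142). The description block also ended the calls of these 4 genes.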

How the results depend on the processing

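The vehicle count of 2157 genes stayed within 1.5 times in every alternative run: 2163 with RLE size factors, 2321 with library totals alone, 1869 with no filter, 1970 with a mean of at least 1 CPM, 2478 with DESeq2, 2202 with limma voom, 2692 with only the 6 compared libraries fitted, and 1558 to 1844 without any one of these libraries. Of the 2157 calls, 2125 were shared with DESeq2 and 1524 to 1715 with the leave-one-out fits, all in the same direction. The labels do not say whether a replicate number marks a shared mouse or day. With the title number as a replicate block the count was 2312, and with the description number 2114. Of 230 named vehicle calls, none reversed in any alternative; DESeq2 and voom ended 0 of them, the description block 13, and leaving out a library 22 to 31.

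Other counts moved more, and the cause was not tested. The LDL count of 3397 was 1287 with only the compared libraries and ranged from 1838 (without Dnmt3aKO LDL library 3) to 5658 (without WT LDL library 2). The interaction count of 84 was 208 with no filter, 151 with at least 1 CPM, 458 with DESeq2, 133 with the title block, 54 with the description block, 49 with only the compared libraries and 41 (without WT vehicle library 3) to 731 (without WT LDL library 2). The count against Tet2KO was 3458 with only the compared libraries, in place of 1707, and that against Jak2VF ranged from 2425 (without Dnmt3aKO library 1) to 4573 (without Jak2VF library 3), in place of 3729. Genes under about 10 counts, such as Gja5 in Dnmt3aKO, have their size limited by depth.

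Counts in some gene lists moved by over 1.5 times as well. With no filter on low counts 7 chemokine genes rose and 5 fell, 3 homeobox and stem cell genes fell and 3 prostaglandin genes fell. With at least 1 CPM 1 homeobox gene rose. With only the compared libraries 5 lectin receptors, 6 TGF-beta receptor genes, 4 ER stress genes and 3 stromal genes rose, and 5 chemokine, 4 prostaglandin and 4 resident macrophage genes fell. With DESeq2 3 macrophage identity genes rose and 4 resident macrophage genes fell. With library totals alone 3 stromal genes fell. With the title block 5 TGF-beta receptor and 2 stromal genes rose, and with the description block 2 interferon genes and 1 antigen presentation gene fell. Beside these and the values in the report, such moves in these settings were of 1 gene.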

Other observations

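Genes outside the selection rule, 2 in number, were picked after their values were seen. BC018473, whose symbol is a clone name, held 307, 282 and 321 counts in the Dnmt3aKO vehicle libraries, against 1, 1 and 1 in WT. Corrected for the unscaled library totals, the summed counts of 910 and 3 gave a ratio of 272. Its 95% interval of 92.8 to 1322 covers counting error only. BC018473 stood at 7.44, 7.97 and 7.46 CPM in the Dnmt3aKO LDL libraries as well, and under 0.11 CPM in all Tet2KO and Jak2VF vehicle libraries.

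Mid1, an X-linked ubiquitin ligase of microtubules, stood at 26.1, 26.5 and 27.2 CPM in Dnmt3aKO and 21.7, 22.9 and 23.9 CPM in Tet2KO with vehicle. It stood at 89.7, 78.5 and 87.0 CPM in Jak2VF and 92.6, 95.8 and 94.1 CPM in WT, also with vehicle. Dnmt3aKO against WT gave -1.82 ± 0.08 (3 libraries each, standard error from the fit of all 24 libraries). Dnmt3aKO and Tet2KO were low and Jak2VF and WT high, without overlap. The low level held with LDL, at 28.2, 27.1 and 27.1 CPM in Dnmt3aKO, against 107, 99.2 and 95.1 CPM in WT.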
